A study of Dunaliella salina with 12 samples.

Results

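Added NaCl was set against H2O2 in Dunaliella salina, a green alga of salt lakes, to compare salinity with oxidative stress directly. No control library entered the test. The comparison rests on 6 of the 12 RNA sequencing libraries of the series, the 3 titled NaCl and the 3 titled H2O2. NaCl cells spent 2 h in fresh medium of 1.5 M NaCl to which another 1.5 M NaCl was added. H2O2 cells spent 2 h in the same 1.5 M NaCl medium with 0.4 mM H2O2. Sorbitol cells (1.5 M sorbitol in that medium) and control cells (that medium alone), with 3 libraries each, were used only to place levels. All cells were of strain 435, labelled as 5 days old, and were collected by centrifugation before transfer, so every group, control included, had already been moved into salty fresh medium. Separate cultures are not stated for the libraries within a group, and p-values then reflect only library-to-library spread, which may be technical.

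D. salina lacks a rigid cell wall and meets a rise in external salt by accumulating glycerol inside the cell, made from photosynthetic products and from stored starch. Added salt brings both an osmotic and an ionic load. Hydrogen peroxide is a reactive oxygen species that cells remove with catalases, peroxidases and peroxiredoxins, and it also acts as a signal. The genes here carry the IDs of an assembly, with a component part and a gene part, and the files do not pair them with names: 0 of the 82333 IDs matched the 16683 genes of the reference table. No function, pathway or sequence is therefore given for any gene, and gene lists for glycerol, starch or antioxidant enzymes were not run.

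Levels are in FPKM, fragment abundance scaled for transcript length and library total, a unit inferred from the values. NaCl libraries listed 41109, 42727 and 39367 genes above 0, against 37740, 38002 and 37740 in H2O2 libraries. NaCl and H2O2 libraries did not overlap, and the exact two-sided permutation test gave p = 0.1, the smallest that 3 against 3 libraries allow. Control libraries listed 41098, 41096 and 42673 genes, within the NaCl range. Sorbitol libraries listed 39566, 37005 and 38098, overlapping both treatments. Relative depth, estimated from the spacing of low values, averaged 1.06 ± 0.121 in NaCl and 0.943 ± 0.017 in H2O2 libraries (SD, n = 3 each), around a mean of 1 over the 6 libraries. What part depth has in the number of genes listed was not tested. The 10 highest genes of each library held 9.30% ± 0.436 of the summed FPKM with NaCl and 11.9% ± 0.781 with H2O2 (exact permutation p = 0.1). Across tested genes, Pearson correlations of log2(FPKM + 1) were 0.882 to 0.896 between NaCl and H2O2 libraries, 0.959 to 0.969 within NaCl and 0.951 to 0.962 within H2O2. With control libraries they were 0.953 to 0.965 for H2O2, about as high as within H2O2, and 0.888 to 0.907 for NaCl. With sorbitol libraries they were 0.937 to 0.95 for H2O2 and 0.928 to 0.943 for NaCl. Genes are not independent replicates, and these values only describe the libraries.

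A large part of the tested transcripts stood at different levels in the 2 treatments. Of 21540 genes that reached 1 FPKM in 3 or more of the 6 libraries, 8018 (37.2%) passed limma's test at an adjusted p of 0.05. NaCl was higher than H2O2 in 3423 of them (15.9% of the tested genes) and lower in 4595 (21.3%). An unadjusted p below 0.05 was reached by 9943 genes. The median log2 difference over all tested genes was -0.02, so the levels as a whole were centred near 0. Some genes entered through 1 treatment alone and were bound to differ in level: 334 had at least 1 FPKM in all 3 NaCl libraries and less in all 3 H2O2 libraries, 249 of them called, and 483 were the other way round, 406 of them called.

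**Figure D1:**
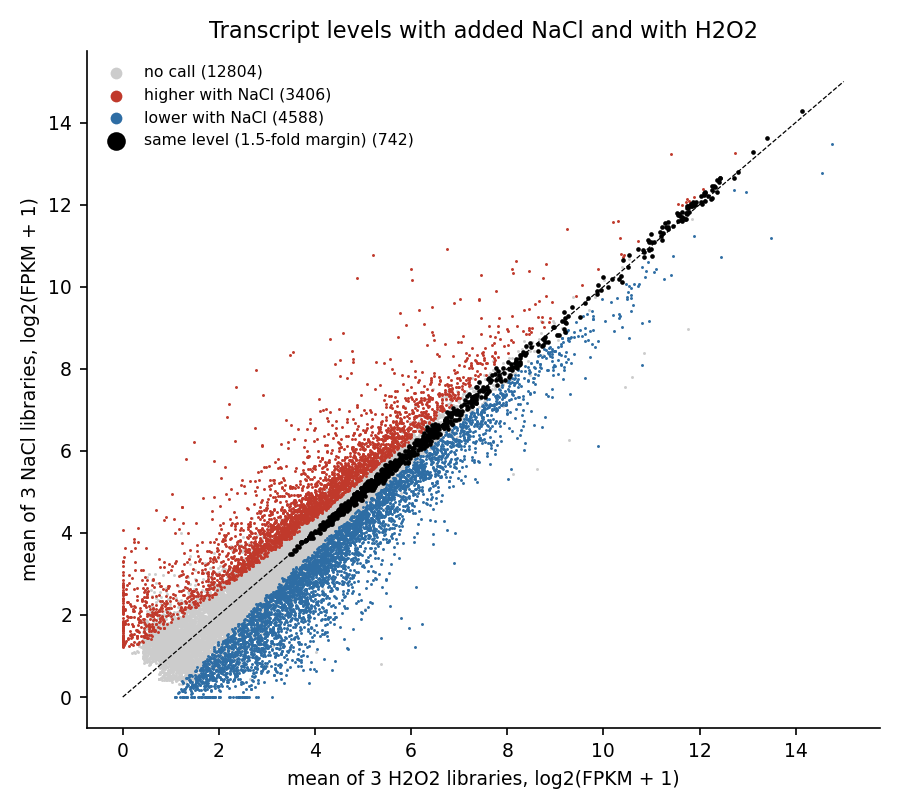
Each point is a tested gene, with the mean of the 3 NaCl libraries on the vertical axis and the mean of the 3 H2O2 libraries on the horizontal axis, both as log2(FPKM + 1); the dashed line marks equal levels. Red genes were called higher and blue genes lower with NaCl, black genes were at the same level by the test with a 1.5-fold margin (of these, 24 were also called different by a small amount and are drawn in black), and grey genes passed neither test.

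On the log2(FPKM + 1) scale, calls of 1 to 2 log2 were more numerous below H2O2 than above it. NaCl exceeded H2O2 by at least 1 log2 in 1222 genes (5.67% of those tested) and lay at least 1 log2 below it in 2165 (10.1%). At 2 log2 or more the counts were 258 higher and 317 lower. At 3 log2 or more the order turned, with 59 higher and 22 lower, and at 4 log2 or more there were 16 higher and 3 lower. The log2(FPKM + 1) scale understates large differences of genes near 0 in either treatment, so the counts at large differences depend on the pseudocount. With a pseudocount of 0.1, an alternative, the counts at 3 log2 or more were 264 higher and 277 lower, and at 4 log2 or more 139 higher and 106 lower.

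The gene c1320_g1 had the largest rise by the naming rule, which took called genes at or above the median level of 9.87 FPKM whose 3 libraries of one treatment all lay above those of the other. It was at 1641, 1767 and 1799.8 FPKM in the NaCl libraries, against 32.9, 52.2 and 22.0 FPKM in the H2O2 libraries. The NaCl mean was 48.6 times the H2O2 mean, a log2 difference of 5.65 ± 0.26 (SE, limma adjusted p = 1.8e-05). Sorbitol libraries held 679, 529 and 936 FPKM and control libraries 33.4, 32.1 and 35.8 FPKM. H2O2 and control libraries thus overlapped, while sorbitol lay between the H2O2 and NaCl libraries and overlapped neither.

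The gene c24088_g1 was at 1212, 1098 and 1219 FPKM with NaCl, against 35.5, 28.2 and 20.9 FPKM with H2O2. Its log2 difference was 5.36 ± 0.17 (SE, limma adjusted p = 4.6e-06), a ratio of means of 41.7. Sorbitol libraries held 119.8, 117 and 159.7 FPKM, well short of the NaCl level, and control libraries 33.5, 31.9 and 27.0 FPKM. Both genes shared a control level inside the H2O2 range, but c1320_g1 had covered 0.77 of the distance from the H2O2 to the NaCl level with sorbitol on the log2 scale, and c24088_g1 0.41 of it.

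The gene c77213_g1 fell to 2.52, 1.47 and 0 FPKM in the NaCl libraries, against 77.6, 47.2 and 74.4 FPKM in the H2O2 libraries. The log2 difference was -5.00 ± 0.44 (SE, limma adjusted p = 0.00015), and because 1 NaCl library lists the gene at 0, its size depends on the pseudocount. Sorbitol libraries held 16.5, 9.02 and 10.3 FPKM, and control libraries 56.3, 49.1 and 49.2 FPKM. All 3 sorbitol libraries stood above the NaCl libraries and below the H2O2 and control libraries.

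The gene c30130_g1 was at 3.12, 2.04 and 2.10 FPKM with NaCl, against 88.6, 64.1 and 69.2 FPKM with H2O2. The H2O2 mean was 30.6 times the NaCl mean (log2 difference -4.45 ± 0.18, SE, limma adjusted p = 1.1e-05). Sorbitol libraries held 10.3, 12.2 and 8.22 FPKM, and control libraries 50.9, 55.2 and 70.5 FPKM. The other tested gene of its assembly component, which may share reads with it, was also called lower, by -2.59 log2.

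**Figure D2:**
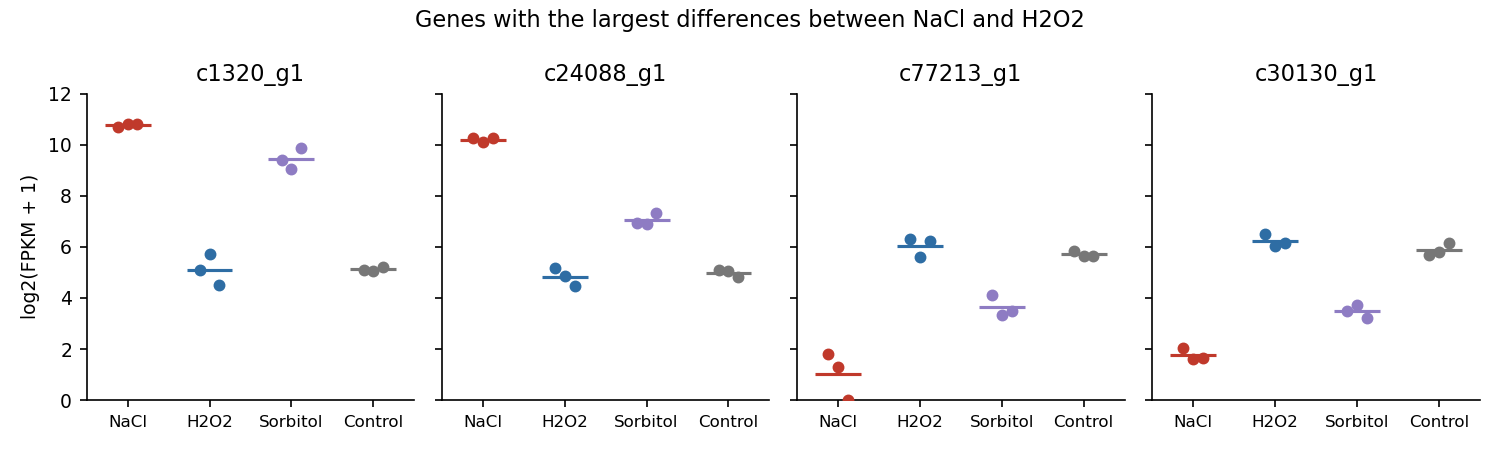
Levels of the 2 genes with the largest rises and the 2 with the largest falls, as log2(FPKM + 1), with a point for each library and a line at the mean of the 3. In each of the 4 genes the NaCl and H2O2 libraries are far apart, H2O2 libraries lie close to control, and sorbitol libraries lie between H2O2 and NaCl.

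Among the most abundant transcripts, large differences and level ones stood side by side. Of the 10 genes with the highest mean over the 6 libraries, 4 were lower with NaCl, 1 was higher and 5 were at the same level by the test described further on. The gene of rank 1 was at 13342, 10804 and 9958 FPKM with NaCl, against 31401, 28164 and 23279.9 FPKM with H2O2 (log2 difference -1.28 ± 0.14, SE, limma adjusted p = 0.00039). The gene of rank 3 was at 8447, 6573 and 5886 FPKM with NaCl, against 27227, 25710 and 19128 FPKM with H2O2 (log2 difference -1.79 ± 0.17, SE, limma adjusted p = 2e-04). In both, NaCl and H2O2 libraries were far apart without overlap.

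The gene of rank 8 had the widest relative difference of the 10, at 3345, 2091 and 1576 FPKM with NaCl, against 13104, 13139.7 and 8061 FPKM with H2O2 (log2 difference -2.33 ± 0.29, SE, limma adjusted p = 0.00069). These 3 genes, the ranks 1, 3 and 8, also had the 3 largest drops in mean FPKM among all called genes. Their control means were 31492 ± 4236, 31291 ± 5662 and 16339 ± 3100 FPKM (SD, n = 3), above the H2O2 mean in each, and their sorbitol means were 15163 ± 1998, 13241 ± 2133 and 3787 ± 705 FPKM. The gene of rank 10 was at 4854, 4983 and 5440 FPKM with NaCl, against 6266, 8421 and 9448 FPKM with H2O2 (log2 difference -0.64 ± 0.14, SE, limma adjusted p = 0.01). Here the mean with control, 6638 ± 1019 FPKM, lay between both treatments.

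The gain in mean FPKM was largest for a gene outside the first 10, at 10086, 9168 and 9429 FPKM with NaCl, against 2462, 3772 and 1925 FPKM with H2O2 (log2 difference 1.87 ± 0.21, SE, limma adjusted p = 0.00047). Next came the gene of rank 6, at 9161, 9634 and 10435 FPKM with NaCl, against 6018, 7435 and 6984 FPKM with H2O2 (log2 difference 0.52 ± 0.09, SE, limma adjusted p = 0.0042). The other 3 of the 5 largest gains had NaCl means of 2735 to 3122 FPKM, against 604 to 1262 FPKM with H2O2. One of these 3 stood out by its sorbitol mean, 1230.3 ± 63.6 FPKM, almost equal to its H2O2 mean of 1169 ± 278 and its control mean of 1230.5 ± 67.6 FPKM, while NaCl libraries held 3370.0, 2873 and 2946 FPKM. In the other 4 the sorbitol mean was between the H2O2 and the NaCl mean.

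**Figure D3:**
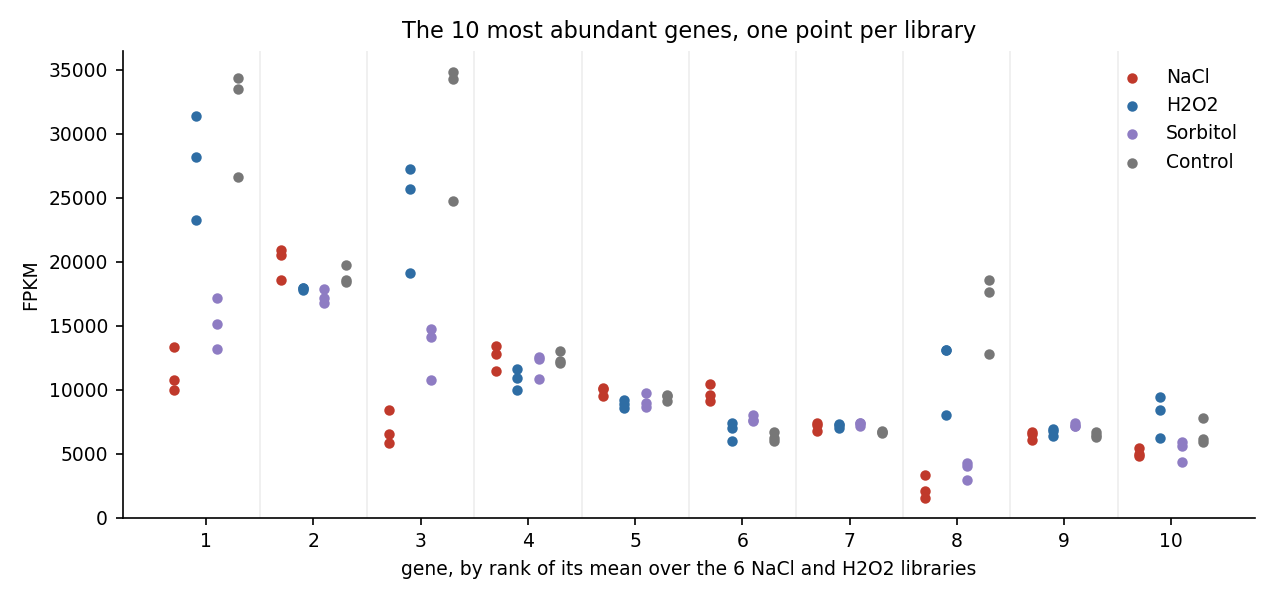
FPKM of the 10 genes with the highest mean over the NaCl and H2O2 libraries, one point per library. Ranks 1, 3 and 8 are low with NaCl and high with H2O2 and control, with sorbitol means nearer to NaCl in FPKM, whereas the group means of ranks 2, 4, 5, 7 and 9 differ little.

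Summed over the transcriptome, called genes held much of the FPKM total, and in unequal shares. Genes called higher held 29.6% ± 0.102 of the summed FPKM with NaCl and 16.7% ± 0.244 with H2O2 (SD, n = 3 each). Genes called lower held 18.5% ± 0.7 with NaCl and 34.4% ± 0.535 with H2O2. These sums use the values that chose the genes and are given as a description. In libraries outside the test, the higher set held 22.1% ± 0.643 with sorbitol and 16.7% ± 0.415 in control, and the lower set 26.4% ± 0.552 with sorbitol and 36.0% ± 1.17 in control.

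Calls depended on the level of expression, and the balance of directions did as well. With the tested genes ranked by mean FPKM into 4 groups of 5385, 7.30% of group 1, the lowest, were higher with NaCl and 15.1% lower, and in group 2, 9.77% were higher and 22.1% lower. In group 3, 18.8% were higher and 20.7% lower, and in group 4, from 24.7 FPKM up, 27.7% were higher and 27.4% lower. The excess of falls thus lay mostly in groups 1 and 2. These counts include genes that entered through 1 treatment alone, 249 called higher and 406 called lower. The filter fixed the direction of those genes, and how many lie in each group is not given here. The excess at low levels is therefore partly set by the filter to an extent that was not tested. The median standard error of the log2 difference was 0.33 in group 1 and 0.12 in group 4, so smaller differences could pass among abundant genes.

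**Figure D4:**
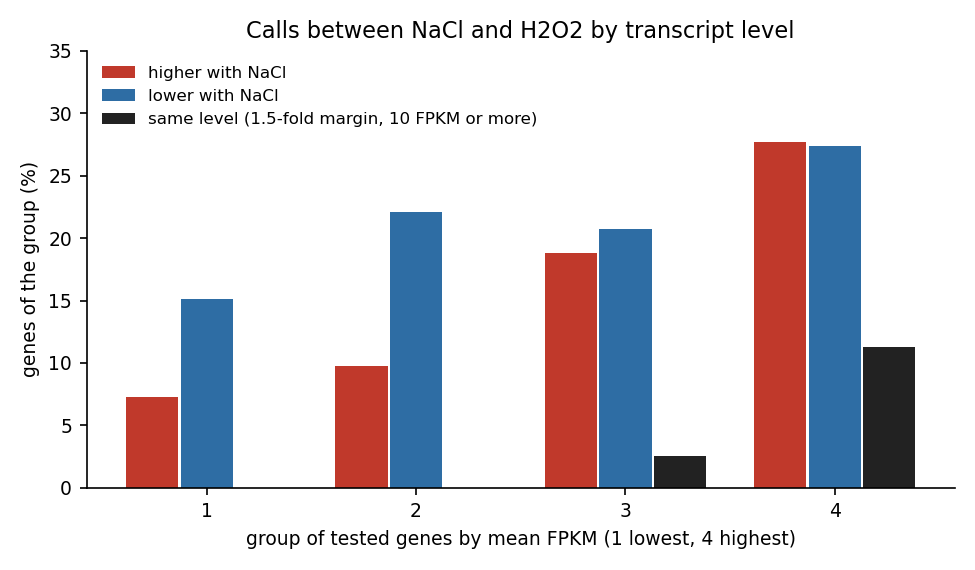
Percent of genes called higher (red) and lower (blue) with NaCl than with H2O2, in 4 equal groups of tested genes by mean FPKM, from 1 (lowest) to 4 (highest). Black bars give the percent of all genes of the group that were at the same level by the 1.5-fold test. That count takes only genes of 10 FPKM or more, and groups 1 and 2 end below this, so they hold none by construction. Falls outnumber rises in groups 1 and 2, and the directions are close to even in group 4, at 27.7% and 27.4%. Genes that entered through 1 treatment alone, whose direction the filter fixed, are included.

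Some transcripts were listed only in 1 of the treatments. Of the 82333 IDs, only 74 had at least 1 FPKM in all 3 NaCl libraries and 0 in all 3 H2O2 libraries, and 66 had the reverse pattern. Where present they were low, with a median of 2.53 FPKM in the NaCl set and 2.49 FPKM in the H2O2 set. The highest of the NaCl set was at 21.0, 21.3 and 4.79 FPKM with NaCl and was listed at 0 in every H2O2 and control library. Its sorbitol libraries held 0, 3.51 and 5.72 FPKM. The highest of the H2O2 set was at 3.64, 15.6 and 3.70 FPKM with H2O2. It was also listed at 12.84, 0 and 8.03 FPKM with sorbitol and at 0, 6.67 and 2.59 FPKM in control. Of the NaCl set, 29 genes were also at 0 in all control libraries and 2 had at least 1 FPKM in each of them. Of the H2O2 set, 12 were at 0 in all control libraries and 18 had at least 1 FPKM in each. The shares of all genes at these control levels are not given here, so these counts only describe the sets. With fewer libraries to meet the rule the NaCl set grew to 344, 253 and 378 genes without NaCl replicates 1, 2 and 3 and to 114 without H2O2 replicate 1. The H2O2 set grew to 251, 242 and 229 genes without H2O2 replicates 1, 2 and 3 and to 100 without NaCl replicate 1. These are levels near what few reads give, and the values hold no absolute depth, so a listed 0 is not read as absence.

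The libraries outside the test were used to describe where control and sorbitol levels lay relative to both treatments. For each gene that differed by at least 1 log2, a position was computed on log2(FPKM + 1), with 0 at the H2O2 mean and 1 at the NaCl mean. Control sat near the H2O2 end: its median position was 0.018 (quartiles -0.089 and 0.193) for the 1222 genes higher with NaCl and 0.095 (quartiles -0.005 and 0.210) for the 2165 genes lower with NaCl. Control was nearer to H2O2 than to NaCl in 91.7% of the higher genes and 94.5% of the lower ones. Taken alone, the 3 control libraries gave medians of 0.018, 0.005 and 0.003 for the higher genes and of 0.119, 0.064 and 0.085 for the lower genes.

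Sorbitol lay part of the way to NaCl. Its median position was 0.385 (quartiles 0.180 and 0.568) for the higher genes and 0.453 (quartiles 0.296 and 0.616) for the lower genes. Single sorbitol libraries gave 0.382, 0.322 and 0.427 for the higher genes and 0.387, 0.470 and 0.479 for the lower genes, so all 3 were well above all 3 control libraries. In 59.1% of the higher and 68.0% of the lower genes the sorbitol mean stood between 0.25 and 0.75. It stood at 0.75 or beyond in 9.17% and 12.9%. Among the 59 genes higher by at least 3 log2 the median position was 0.441 for sorbitol and 0.003 for control, and among the 22 lower by as much it was 0.548 for sorbitol and 0.073 for control. Genes were chosen by their NaCl and H2O2 values only, and no test was made of positions.

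**Figure D5:**
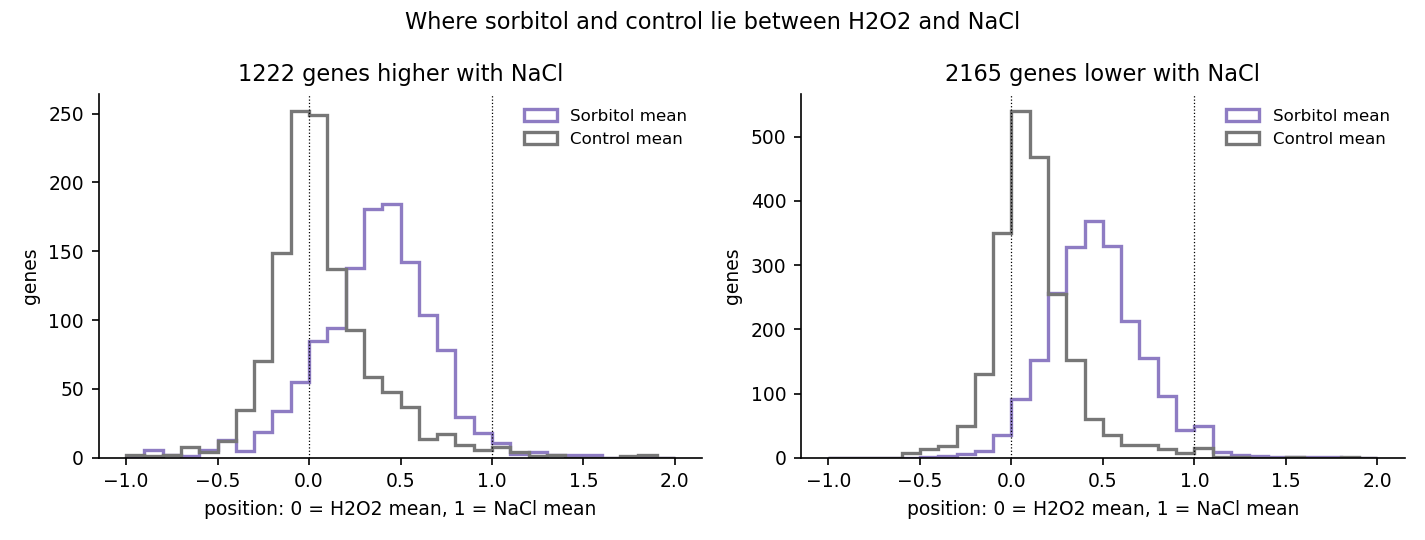
Position of the sorbitol mean (purple) and of the control mean (grey) on a scale where 0 is the H2O2 mean and 1 the NaCl mean, for the 1222 genes higher (left) and the 2165 genes lower (right) with NaCl by at least 1 log2; the vertical axis counts genes. Control peaks near 0 and sorbitol between the treatments; 3 sorbitol values on the left and 1 on the right lie outside the axis.

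In a small set the control mean was at the NaCl end and the H2O2 mean away from it. H2O2 alone was not tested against control. Control stood at 0.75 or beyond in 39 of the higher genes (3.19%) and 50 of the lower genes (2.31%). Control libraries 1, 2 and 3 taken alone gave 72, 72 and 68 higher genes and 107, 63 and 60 lower genes, so membership varied with the library. The most abundant of the 39 was at 104, 172 and 71.5 FPKM with NaCl, against 27.3, 46.3 and 16.1 FPKM with H2O2 (log2 difference 1.95 ± 0.41, SE, limma adjusted p = 0.0078), with 109.6, 86.1 and 131 FPKM in control. It was lower still with sorbitol, at 2.58, 1.36 and 1.81 FPKM. The most abundant of the 50 was at 12.5, 4.96 and 6.91 FPKM with NaCl, against 16.0, 17.1 and 38.3 FPKM with H2O2, and at 4.36, 14.8 and 11.5 FPKM in control. Its log2 difference was -1.41 ± 0.39 (SE, limma adjusted p = 0.024), and the spread within H2O2 was wide. These 2 genes were chosen after their values were seen.

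Genes that both treatments hold at the same level were sought with a test of their own, since a missed difference does not show equality. A pair of one-sided limma tests asked whether the log2 difference lies inside a 1.5-fold margin either way, and genes with a mean of at least 10 FPKM were counted, where the pseudocount hardly shrinks a fold. Of 10694 such genes, 742 (6.94%) passed at an adjusted p of 0.05, and 3965 at an unadjusted p of 0.05. The 742 had a median absolute log2 difference of 0.06 and a largest one of 0.30. Their adjusted p ran from 0.028 up to the threshold, so the count is fragile: it was 0 without any one of NaCl replicates 1, 2 and 3 or H2O2 replicates 1, 2 and 3, and also under median-ratio scaling and without the mean-variance trend. With a 2-fold margin 7175 of the 10694 (67.1%) passed, and 6354 to 7027 did when each of the 6 libraries was left out. Of the 7175, 2065 were also called different, by amounts inside that margin, and 513 of the 10694 passed neither the 2-fold nor the difference test.

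Same-level genes were frequent at the top of the range. They made up 74 of the 100 most abundant genes, all with a mean of 1782 FPKM or more, and 88 of the 100 were within 2-fold. Of the same 100, 24 were called higher with NaCl and 12 lower, and 12 were both called and at the same level. The median mean level was 51.6 FPKM in the 742 genes, against 24.8 FPKM in all 10694. The median standard error was 0.10 in the 742 and 0.14 in the 10694, and a small error is part of passing the test. Together the 742 genes held 35.8% ± 1.09 of the summed FPKM with NaCl and 33.0% ± 1.04 with H2O2 (SD, n = 3 each), and in libraries outside the test 36.4% ± 1.12 with sorbitol and 33.3% ± 0.769 in control.

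The most abundant same-level gene, of rank 2 by level, was at 20504, 18586 and 20956 FPKM with NaCl, against 17932, 17815 and 17950.1 FPKM with H2O2. All NaCl libraries were above all H2O2 libraries, but the log2 difference was only 0.16 (95% interval 0.00 to 0.32, limma adjusted p for the same level 0.034). The gene of rank 7 was at 7403, 6760.0 and 7227 FPKM with NaCl, against 6992, 7219.9 and 7308 FPKM with H2O2, a log2 difference of -0.01 (95% interval -0.16 to 0.14, limma adjusted p for the same level 0.028). The gene of rank 9 was at 6532, 6106 and 6682 FPKM with NaCl, against 6407, 6944 and 6820 FPKM with H2O2 (95% interval of the log2 difference -0.22 to 0.10). In these last 2 genes the treatments overlapped.

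The genes of ranks 4 and 5 leaned to NaCl within the margin. That of rank 4 was at 13395, 11499 and 12824 FPKM with NaCl, against 9953, 10889 and 11645 FPKM with H2O2 (95% interval of the log2 difference 0.01 to 0.42). That of rank 5 was at 10161, 9517 and 10096 FPKM with NaCl, against 8878, 8575 and 9241 FPKM with H2O2 (95% interval 0.01 to 0.31). The control means of these 5 genes were 18917, 6718, 6498, 12436 and 9424 FPKM in the order given, within 1.5-fold of both treatments in each.

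In 738 of the 742 genes (99.5%) the control mean was within the 1.5-fold margin of both treatment means, and in 735 the sorbitol mean was as well. Over all 10694 genes of at least 10 FPKM, the control mean met that margin in 6498 (60.8%), a background that includes genes in which the treatment means themselves lay far apart. The mean of NaCl and H2O2 was then tested against control over 9 libraries. Its estimate shares no part with the difference between the treatments, but both tests use the spread of the same 6 treated libraries, and the 742 were chosen partly for a small error, so these calls are not independent of the choice. The test called 86 of the 742 (11.6%) above control and 17 (2.29%) below, where 21.0% and 12.1% of all genes of at least 10 FPKM, many of them moved by NaCl, were called (13.1% and 9.48% of all tested genes). The shifts had medians of 0.30 and -0.31 log2, and 0 of the 742 reached 1 log2, against 323 called genes (3.02%) among the 10694. Over all tested genes the median of treated minus control was 0.088 log2, and 0.026 under median-ratio scaling. The balance of calls above and below control therefore depends on the scaling. The count of 103 was 38, 36 and 53 without control replicates 1, 2 and 3. Genes shut off by both treatments are missing here, since levels were filtered on treated libraries.

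The same-level gene farthest above control was at 18.4, 22.9 and 19.6 FPKM with NaCl and 19.4, 20.8 and 18.5 FPKM with H2O2, against 10.5, 12.1 and 15.3 FPKM in control (treated minus control 0.63 ± 0.13 log2, SE, limma adjusted p = 0.0069). The next was at 193, 207 and 249 FPKM with NaCl and 230.1, 236 and 218 FPKM with H2O2, against 165, 156 and 121 FPKM in control (0.60 ± 0.11, SE, limma adjusted p = 0.0044). Its sorbitol libraries, at 149.5, 181 and 117 FPKM, overlapped control but not the treatments compared. In both genes every NaCl and H2O2 library was above every control library. Over the 86 genes above control, the sorbitol mean was on the treated side of the midpoint between treated and control means in 72. The second gene, with sorbitol near control, is therefore not typical of the 86.

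Farthest below control was a gene at 33.1, 39.0 and 37.2 FPKM with NaCl and 34.6, 33.1 and 31.7 FPKM with H2O2, against 45.7, 61.7 and 47.7 FPKM in control (-0.55 ± 0.11, SE, limma adjusted p = 0.0055). The next was more abundant, at 679, 613 and 529 FPKM with NaCl and 601, 548 and 609 FPKM with H2O2, against 815, 888 and 908 FPKM in control (-0.55 ± 0.08, SE, limma adjusted p = 0.0015). Sorbitol libraries of this gene held 595, 639.7 and 573 FPKM, so it was low in all treated groups. Over the 17 genes below control, the sorbitol mean was on the treated side of the midpoint in only 8. A deviation of the control libraries would move all treated groups alike.

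With the wider 2-fold margin, 1159 of the 7175 genes (16.2%) were called above control and 330 (4.60%) below. Over all genes of at least 10 FPKM the shares were 21.0% and 12.1%. The contrast averages NaCl and H2O2, and 2065 of the 7175 were also called different between them. A call against control may therefore rest mainly on a single treatment, and neither treatment alone was tested against control. The balance of these calls within the 7175 depended on how libraries are scaled. The share of them above control was 77.8% as given, 53.8% under median-ratio scaling (644 above, 553 below) and 85.5% with equal sums (1468 above, 248 below). The counts above and below were 465 and 168 without control replicate 1, 512 and 172 without control replicate 2, and 638 and 185 without control replicate 3. They were 760 and 214 without NaCl replicate 2, 724 and 239 without NaCl replicate 3, and 831 and 181 without H2O2 replicate 1. Lifting the filter on low values gave 534 and 168, a fit with no mean-variance trend gave 777 and 170, and for components with 1 gene, which are fewer, they were 584 and 163. Called shifts of at least 1 log2 numbered 4 above and 1 below of the 7175 (0.0697%), against 323 of the 10694 genes of at least 10 FPKM (3.02%). A gene moved strongly by NaCl alone also shifts the averaged contrast, and the 2-fold margin leaves such genes out. The gap is therefore partly set by the choice of genes. The largest of these called shifts was that of a gene at 29.2, 24.8 and 13.8 FPKM with NaCl and 21.4, 22.8 and 16.4 FPKM with H2O2, against 4.36, 0 and 0 FPKM in control (3.64 ± 0.49 log2, SE, limma adjusted p = 0.00095). Because not all control libraries list this gene above 0, the size of its shift depends on the pseudocount. The gene below was at 11.4, 7.21 and 11.0 FPKM with NaCl and 13.7, 12.0 and 10.7 FPKM with H2O2, against 36.6, 19.6 and 19.7 FPKM in control (-1.09 ± 0.21, SE, limma adjusted p = 0.0063).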

How the data were processed

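The deposited FPKM tables, 1 per library, were used as the authors deposited them. Adapter trimming with cutadapt and abundance estimation with RSEM are named, without versions, in the submitters' processing notes; the reference and build were not given in the sources used here. No source states the unit; FPKM was inferred from the values, whose sums of 1066750 to 1111121 in the 6 libraries compared are neither those of counts nor the fixed sum that TPM has. Absolute depth is unknown.

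The tests ran on log2(FPKM + 1), which compresses differences of low genes. Genes that reached 1 FPKM in 3 or more of the 6 libraries were fitted with limma 3.58.1 (R 4.3.3, mean-variance trend, 3 NaCl against 3 H2O2 libraries), with Benjamini-Hochberg adjustment over all tested genes at 0.05. The same-level test used the same fit; the contrast with control used 9 libraries. Relative depth was the commonest ratio (window 0.05 log2) between libraries of values from 0.2 to 1.2 FPKM, where single reads make steps. Named genes were the 2 higher and 2 lower with the largest log2 difference under the conditions in the text; others are given by rank. The scripts were tested on simulated data. Alternatives covered pseudocount, filter, scaling, trend, block, margin and left-out libraries. Plots were drawn with matplotlib 3.10.9. Members, rules and tests were chosen with earlier results of these data known. At most 2.74% of values above 0 were equal between any 2 of the 6 libraries.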

Additional observations from a re-analysis of the deposited data

How the results depend on the processing

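All 4 named genes kept their direction and passed at an adjusted p of 0.05 under each of their 15 or 16 alternatives, with adjusted p from 2.3e-09 to 0.0033. The count of 8018 called genes was 6057 to 7334 with each library left out, 5342 with no filter, 4816 for components with 1 gene and 4676 at an adjusted p of 0.01; lifting the filter adds tests, the components hold fewer genes and the last threshold is stricter. Same-level genes (742) numbered 320 with a pseudocount of 0.1, 1804 with a filter at 5 FPKM and 2791 with all 12 libraries fitted. They numbered 0 with no filter, with the replicate block, under median-ratio scaling, without the mean-variance trend, for components with 1 gene, with the narrower planned margin and with each of the 6 libraries left out (0 to 0), and 7175 with a 2-fold margin. The part of these called against control (103) was 51, 293 and 469 under the first 3 settings, 0 under the next 6, 0 to 53 with each library left out and 1489 with a 2-fold margin. Genes within 2-fold were 6354 to 7027 with each library left out, 4091 for components with 1 gene and 11268 with no minimum mean. The control position of higher genes (0.018) was 0.00797 with a pseudocount of 0.1, 0 with no filter, -0.0183 at 5 FPKM, 0.064 under median-ratio scaling, 0 with equal sums, 0.027 for components with 1 gene and 0 to 0.062 with each library left out. That of lower genes (0.095) was 0.039 under median-ratio scaling and 0.082 to 0.119 with each library left out. Sorbitol positions were 0.357 to 0.419 for higher and 0.411 to 0.467 for lower genes over all alternatives run. Genes listed at 0 with H2O2 (74) or NaCl (66) were 3 and 0 at 5 FPKM, and 108 to 378 and 87 to 251 with each library left out, since fewer libraries must then meet the rule. Where no construction shows it, the cause was not tested.

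Deviations from the group mean correlated at 0.003, -0.050 and 0.055 between NaCl and H2O2 libraries of equal replicate number, and 1 of 3 NaCl libraries correlated best with its own number. The numbers were therefore not used as pairing. With the replicate block 7009 genes were called, 2933 higher and 4076 lower, and 6983 were within 2-fold. Leaving out control libraries, and the 2-fold count under settings other than the margin, and the counts by size with a pseudocount of 0.1, were chosen after seeing the data.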

Other observations

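Called genes of one assembly component shared a direction in some components and not in others. Of 1986 components with at least 2 tested genes, 522 had at least 2 genes called between NaCl and H2O2. All called genes were higher with NaCl in 117 of these components and lower in 174, and in 231 (44.3%) both directions occurred. Over all calls 42.7% were higher with NaCl, a share of genes and not of components, so it is no background for the 44.3%. Whether components hold mixed directions more or less than unrelated genes was not tested. Restricted to differences of at least 1 log2, 153 components had at least 2 such genes, with 37 all higher, 76 all lower and 40 (26.1%) in both directions. How reads were shared between genes of a component is not given in the sources used here.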
